A study of Caenorhabditis elegans with 2 samples.

Results

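The C. elegans genes described here are the 7214 genes of biotype ncRNA on the nuclear chromosomes that have no tRNA, snRNA, snoRNA or miRNA gene within 250 bp, and they are called members below. They are 7214 of the 46890 annotated nuclear genes (Ensembl release 115, build WBcel235, the sequence of ce11). The nuclear genome holds 7764 ncRNA genes, of which 550 were left out for such a neighbour. The members had a median length of 141 bp, between 17 and 8360 bp, and 15 of them carry a RefSeq symbol that is more than a sequence name. Chromatin immunoprecipitation with sequencing of FLT-1, also named BAZ-2, was made from whole early embryos aged 1 hour after egg bleaching. Both samples were of strain OP797, which carries the integrated fosmid transgene wgIs797, with flt-1 fused to TY1, EGFP and 3xFLAG and unc-119(+) as the rescue, in an unc-119 (tm4063) background. Antibody against green fluorescent protein recovered the tagged copy from sonicated chromatin, and the labels do not say whether the endogenous gene was intact. There were 2 biological replicates of 1 group, with no second condition, and no control library was used here.

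FLT-1 is related to the BAZ2 proteins of vertebrates, which pair with an ISWI remodelling enzyme and act on chromatin structure. The ncRNA biotype is a mixed one. It holds RNAs of known function, such as RNase P RNA, which trims the leader from tRNA precursors, RNase MRP RNA, which cuts ribosomal RNA precursors, the RNA of the signal recognition particle, which guides ribosomes to the endoplasmic reticulum, and Y RNA. In animals these RNAs are made by RNA polymerase III, the enzyme that also makes tRNA, from promoters that lie before the gene or, as in tRNA genes, partly inside it. Most other members are short annotated transcripts with no assigned function.

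The sequences that follow are shown because 11 of the 15 member summits of highest signal lay at structural RNAs or held one of the sets of shared letters below, and the other 4 did neither. The first lines give the 80 bp before the annotated start and the first 10 bp of 6 members, 5′ to 3′ on the strand of the gene, with capitals for the letters GTCNNNC and, 10 to 30 bases further on, GTATATA. These letters were chosen after the sequences had been seen, and were searched only on the strand of the gene. Of these 6 members, yrn-1 alone had no summit.
mrpr-1, chrII:7200153-7200242, plus strand: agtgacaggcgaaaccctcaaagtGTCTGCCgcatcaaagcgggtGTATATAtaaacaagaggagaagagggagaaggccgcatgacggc
yrn-1, chrIV:7499428-7499517, plus strand: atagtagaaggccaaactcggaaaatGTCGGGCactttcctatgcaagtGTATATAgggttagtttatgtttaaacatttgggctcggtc
W01D2.7, chrII:14804422-14804511, plus strand: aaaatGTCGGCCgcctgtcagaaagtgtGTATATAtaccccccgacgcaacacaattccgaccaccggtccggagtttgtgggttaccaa
W01D2.8, chrII:14801418-14801507, minus strand: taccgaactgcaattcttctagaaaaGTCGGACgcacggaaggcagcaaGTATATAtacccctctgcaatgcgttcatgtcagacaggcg
W01D2.9, chrII:14804715-14804804, plus strand: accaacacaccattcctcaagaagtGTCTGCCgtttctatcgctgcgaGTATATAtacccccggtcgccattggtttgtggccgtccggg
F08G2.13, chrII:13834514-13834603, minus strand: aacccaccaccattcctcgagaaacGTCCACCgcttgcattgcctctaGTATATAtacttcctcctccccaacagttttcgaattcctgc

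Those letters, within 80 bp before the start, were found at 13 of the 7214 members (0.180%, exact 95% interval 0.0960 to 0.308). They preceded 6 of the 181 members with a summit (3.31%, 1.23 to 7.08) and 7 of the 7033 members without (0.0995%, 0.0400 to 0.205). The letters were chosen after sequences of some of these members had been seen, so this gap is partly built in. Elsewhere they were found at 0 of 612 tRNA genes, 0 of 346 snoRNA genes, 1 of 129 snRNA genes, 1 of 261 miRNA genes and 11 of 19973 protein-coding genes. The members with a summit were rpr-1, mrpr-1, F08G2.13, W01D2.7, W01D2.8 and W01D2.9, and GTATATA began 31 to 35 bp before the start in these except W01D2.7, where it began 52 bp before. The members without were yrn-1, F08G2.12, M163.12, C18C4.17, C54G7.8, CD4.18 and F47B7.15.

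The genes W01D2.7, W01D2.8, W01D2.9, F08G2.12, F08G2.13 and M163.12 also share letters inside the gene, GGGTTA and, 15 to 50 bases later, CTTGAC, shown in capitals over the whole gene. These are all 6 members that hold those letters, which were likewise chosen after the sequences had been seen and searched on the strand of the gene. The files and the annotation give these genes no name beyond the sequence name. The letters were in 0 of 612 tRNA, 0 of 346 snoRNA and 0 of 15363 piRNA genes, in 1 of 129 snRNA and 1 of 261 miRNA genes, and in 37 of 19973 protein-coding genes, which are far longer.
W01D2.7, chrII:14804502-14804559, plus strand: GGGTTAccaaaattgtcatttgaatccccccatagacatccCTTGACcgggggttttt
W01D2.8, chrII:14801350-14801427, minus strand: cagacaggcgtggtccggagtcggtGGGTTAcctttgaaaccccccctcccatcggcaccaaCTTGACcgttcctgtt
W01D2.9, chrII:14804795-14804876, plus strand: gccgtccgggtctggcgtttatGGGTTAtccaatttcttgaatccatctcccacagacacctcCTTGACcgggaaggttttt
F08G2.12, chrII:13834887-13834954, minus strand: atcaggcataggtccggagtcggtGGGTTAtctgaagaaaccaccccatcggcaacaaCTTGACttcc
F08G2.13, chrII:13834449-13834523, minus strand: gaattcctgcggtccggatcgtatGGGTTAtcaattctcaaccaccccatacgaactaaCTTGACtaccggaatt
M163.12, chrX:14477545-14477622, plus strand: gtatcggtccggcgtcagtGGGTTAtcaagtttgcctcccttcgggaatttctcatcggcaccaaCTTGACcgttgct

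A further set is shown for its likeness to the B box, the internal promoter letters of tRNA genes. The lines give 75 bp either side of the summit, with capitals for GTTCNANNC, a relaxed form of the B box letters GTTCGANNC that was chosen after the sequences had been seen.
C14F11.14, chrX:6207781-6207931, plus strand: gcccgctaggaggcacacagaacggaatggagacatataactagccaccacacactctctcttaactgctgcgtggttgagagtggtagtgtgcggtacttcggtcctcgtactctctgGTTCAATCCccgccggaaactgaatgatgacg
ZK816.9, chrX:3347997-3348147, plus strand: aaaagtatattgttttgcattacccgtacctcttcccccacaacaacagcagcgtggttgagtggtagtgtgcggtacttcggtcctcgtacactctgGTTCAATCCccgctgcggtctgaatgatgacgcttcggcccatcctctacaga
T22B2.9, chrX:3914390-3914540, minus strand: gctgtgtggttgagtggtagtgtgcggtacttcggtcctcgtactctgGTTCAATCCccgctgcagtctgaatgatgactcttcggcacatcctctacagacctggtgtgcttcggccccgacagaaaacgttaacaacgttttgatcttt
T28D6.15, chrIII:11371389-11371539, minus strand: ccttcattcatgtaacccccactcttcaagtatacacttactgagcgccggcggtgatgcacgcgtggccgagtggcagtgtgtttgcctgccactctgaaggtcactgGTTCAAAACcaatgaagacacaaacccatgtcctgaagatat
K10H10.11, chrII:14496954-14497104, plus strand: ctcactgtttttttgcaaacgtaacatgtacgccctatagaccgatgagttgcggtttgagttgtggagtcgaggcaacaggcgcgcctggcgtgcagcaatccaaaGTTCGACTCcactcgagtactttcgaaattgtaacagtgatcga

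The summits at C14F11.14, ZK816.9 and T22B2.9 shared an exact stretch of 33 bp that ends shortly before these letters. That stretch occurred 3 times in the nuclear genome, all on the X chromosome. These are the 3 copies at the summits it was taken from, so their nearness to a summit of the pooled list is built in. With up to 6 mismatches allowed, 1 more copy was found, at K02D3.4 and K02D3.5 on the X chromosome, with 1 mismatch and no listed summit but a region of signal 46.7 among those ranked before the threshold. None of the 4 copies lay within 250 bp of a tRNA, snRNA, snoRNA or miRNA gene, and reads from such copies may not be told apart.

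A summit is the base at which a peak is highest, and a member counted as having a summit when it lay inside the gene or within 250 bp of it. The pooled list, thresholded by irreproducible discovery rate over both replicates, put 120 of its 1083 nuclear summits at members, and 181 of 7214 members had a summit (2.51%, exact 95% interval 2.16 to 2.90). Over all nuclear genes the share was 3.28%, so that, counted per gene, members as a whole had a summit no more often than genes in general. Longer genes, such as most protein-coding ones, have larger windows, and these shares are not matched for length. In the list of replicate 1, members with a summit numbered 78 (1.08%, 0.856 to 1.35) against 2.22% of all genes. In the list of replicate 2 they numbered 89 (1.23%, 0.992 to 1.52) against 2.35% of all genes. The ncRNA genes left out for their neighbours stood apart, with a summit at 214 of 550 (38.9%, 34.8 to 43.1), as did tRNA genes with 271 of 612 (44.3%, 40.3 to 48.3). The lists hold no read counts, so the depth behind each replicate is unknown and the intervals cover counting error only. No test was made anywhere, because the design has 1 group.

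The members' windows cover 3.74% of the nuclear genome, and placing each summit uniformly along its chromosome would put 41.6 of 1083 in them. The observed 120 was 2.88 times that number. The ratio was 2.03 in replicate 1 (49 of 618 summits) and 2.21 in replicate 2 (63 of 747), so it exceeded 1 in both. For comparison it was 48.9 at the ncRNA genes left out, 65.1 at tRNA genes and 1.35 at lincRNA genes, which had 5 summits in all. Taken against the regions ranked before the threshold, of which 5.69% lay at members, the ratio was 1.95. Restricting the pooled list to peaks at or above its median signal left 35 summits and a ratio of 1.69.

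Within promoters of protein-coding genes, taken as 500 bp upstream to 200 bp downstream of a transcript start, 53 of 445 summits lay at members against 19.8 expected, a ratio of 2.68. Outside those promoters 67 of 638 did against 24.5 expected, a ratio of 2.73. The ratio outside promoters was 1.52 in replicate 1 and 1.79 in replicate 2, and 1.22 for peaks at or above the median signal. Of all 1083 summits, 336 lay near tRNA, snRNA, snoRNA or miRNA genes, and by the rule no member lies within 250 bp of those genes. With the sequence within 250 bp of those genes set aside, an alternative chosen after the data had been seen, 120 of 747 summits lay at members against 27.7 expected, a ratio of 4.33. On that base the ratio was 4.06 in replicate 1 and 3.65 in replicate 2, and outside promoters it was 5.13 in the pooled list. For peaks at or above the median signal it was then 3.54, and 3.88 outside promoters.

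**Figure D1:**
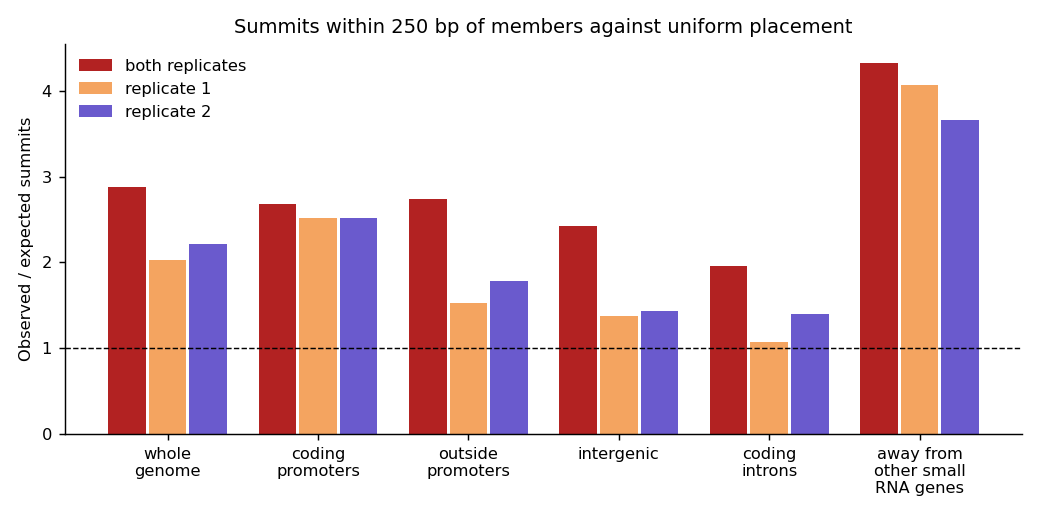
Ratio of observed to uniformly placed summits within 250 bp of members, by the stretch of genome considered, for the pooled list and the own list of each replicate; the dashed line marks 1. All bars drawn lay above 1, from 1.08 in coding introns of replicate 1 to 4.33 away from other small RNA genes in the pooled list. Coding exons are not drawn. There 0 of 34 summits lay at members in the pooled list, 0 of 12 in replicate 1 and 1 of 18 in replicate 2.

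The summits were spread over all 6 nuclear chromosomes. The ratio to uniform placement ran from 2.18 on X and 2.53 on IV to 3.83 on II and 4.01 on I. X held the most members, 2333, of which 62 had a summit (2.66%, 2.04 to 3.40), and IV had the lowest share, 15 of 975 (1.54%, 0.864 to 2.52). On X, 3 summits lay among the F13D11 genes within 6249 bp, of signal 87.0, 64.0 and 47.7, in intergenic sequence, and the first of them was in both replicate lists. The intervals of the share of members overlapped among all 6 chromosomes.

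By setting, 53 of the 120 summits lay in a coding promoter (44.2%, 35.1 to 53.5), 49 between genes (40.8%, 32.0 to 50.2), 18 in a coding intron (15%, 9.14 to 22.7) and 0 in a coding exon. The 963 summits not at members lay in promoters at 40.7%, between genes at 31.5%, in introns at 24.3% and in exons at 3.53%. Of the bases in the members' windows, 20.2% were promoter, 42.0% intergenic, 28.3% intron and 9.49% exon. Set by the midpoint of the gene, members in a promoter had a summit most often, at 82 of 1453 (5.64%, 4.51 to 6.96). Intergenic members followed with 78 of 3095 (2.52%, 2.00 to 3.14), then intronic members with 20 of 2293 (0.872%, 0.534 to 1.34) and exonic members with 1 of 373. In introns, the nearest member was on the strand of its host gene at 7 of the 18 summits and on the other strand at 11. Some of these summits, as at T28D6.13, had more than 1 member within 250 bp, whose strands were not counted. The genes srpr-1.2 and W06F12.7 were each nearest to more than 1 summit.

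The summits at members were mostly weak. Signal is the authors' own value per peak, used only within a list, and its median at members was 64.0, with quartiles of 53.8 and 80.2 and a range of 3.598 to 267.5. The median was 78.1 for the 963 other summits, 134 for those at tRNA, snRNA, snoRNA or miRNA genes, 71.1 in other coding promoters and 63.3 elsewhere. Only 35 of 120 (29.2%) reached the median of the whole list, 75.4, and 4 were among its 100 highest. In replicate 1 alone the median at members was 50.3 and in replicate 2 it was 41.8, on each list's own scale.

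**Figure D2:**
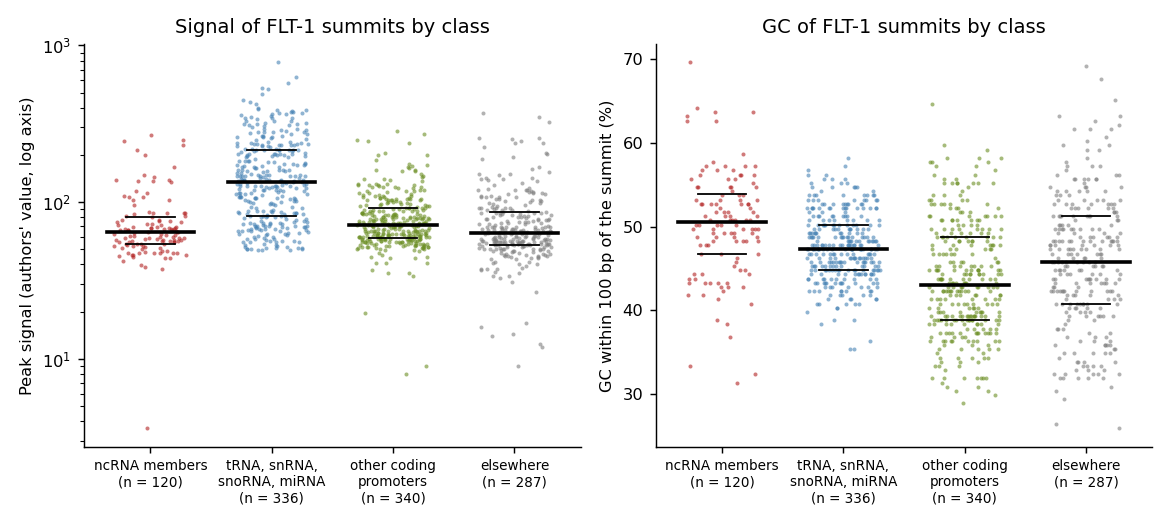
Peak signal (left, log axis) and GC within 100 bp of the summit (right, percent) for each of the 1083 summits of the pooled list, by class; long bars mark medians and short bars quartiles. Member summits had a median signal of 64.0, below the 134 at other small RNA genes, and the highest median GC of the 4 classes, 50.5%.

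Summits of higher signal were more often in both replicate lists. Of the 120 summits, 26 lay in a peak present in both replicate lists (21.7%, 14.7 to 30.1), 17 in replicate 1 only, 25 in replicate 2 only and 52 in neither, where a shared base counted as presence. The share was 42.4% (39.2 to 45.6) for the other 963 summits, of which 336 lay near tRNA, snRNA, snoRNA or miRNA genes and had 70.5%. Away from those genes it was 28.8% (24.1 to 34.0) in other coding promoters and 25.4% (20.5 to 30.9) elsewhere. Member summits had 24.5% (13.8 to 38.3) in promoters and 19.4% (10.8 to 30.9) outside them, so these intervals overlapped. Among members' summits at or above the list median the share in both lists was 25 of 35 (71.4%, 53.7 to 85.4), and below the median it was 1 of 85 (1.18%, 0.0298 to 6.38). The 15 summits of highest signal were all in both lists, as were 11 of the other 105. Pooled signal and the replicate lists come from the same 2 libraries, so this relation is partly built in. Across the 114 member summits with a region in both ranked lists, the signals had a Spearman's rho of 0.269 and a Pearson's r of 0.553 on log10 values, against 0.651 and 0.735 across 929 other summits. The other summits include those near tRNA, snRNA, snoRNA or miRNA genes, which had higher signals, and no correlation was computed without them. These correlations are across summits, which share both libraries.

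**Figure D3:**
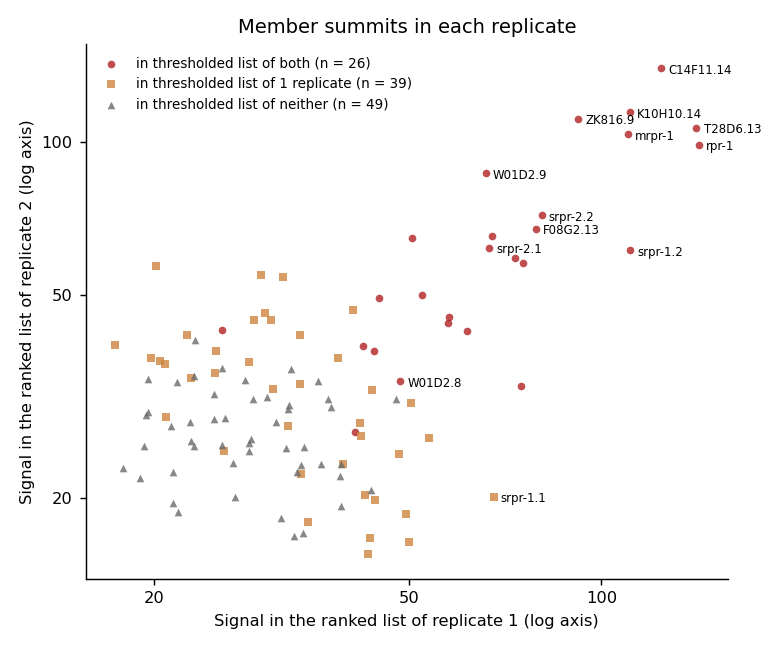
Signal of 114 member summits in the ranked list of replicate 1 and of replicate 2 (both log axes), marked by whether the summit was in the thresholded list of both replicates, of 1 or of neither. Summits in both lists lie mostly toward the upper right, with rpr-1, mrpr-1, C14F11.14, ZK816.9, T28D6.13 and K10H10.14 at the far end. The remainder form a cloud mostly at lower signal. Not all named RNAs and repeats lie far out, as srpr-1.1 had 67.8 in replicate 1 and 20.1 in replicate 2, and T22B2.9 had 74.8 and 33.2.

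RNase P RNA and RNase MRP RNA had the highest signals among the structural RNAs. The gene rpr-1, RNase P RNA (I:13463955-13464207), lies in an intron of ints-8, which encodes an Integrator subunit, on the opposite strand. Its summit was 25 bp into the gene, with a signal of 245.8 in the pooled list, 142 in replicate 1 and 98.8 in replicate 2. The gene mrpr-1, RNase MRP RNA (II:7200233-7200418), has its summit in the promoter of pcrg-1, a coding gene. The summit was 8 bp into the gene, with a signal of 213.8 in the pooled list, 110 in replicate 1 and 104 in replicate 2. Both were in every thresholded list, and they ranked 72 and 108 among 1083.

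Of the 5 genes for signal recognition particle RNA, 4 had a summit. The gene srpr-1.2 (III:4369468-4369766), in an intron of the choline kinase gene ckb-2, had a summit of 168 at 26 bp into the gene, with 111 in replicate 1 and 61.3 in replicate 2. It had a second one of 38.8 at 318 bp, just past its end, which was in the list of replicate 2 only. The gene srpr-2.2 (III:5031410-5031708), in an intron of the kinesin-like gene klp-6 on the opposite strand and beside R144.16, had one of 149 at 111 bp. Replicate 2 had its summit there too, at 71.8, while the list of replicate 1 had 2 summits, of 80.6 at 7 bp and of 74.4 at 263 bp. The gene srpr-2.1 (III:5211220-5211518), between genes, had one of 139 at 81 bp, with 66.7 and 62.0 in the replicates. The gene srpr-1.1 (III:4378909-4379206), between genes, was lower, with 67.7 at 3 bp, and was in the list of replicate 1 alone, at 67.8, while the nearest listed summit of replicate 2 lay 524 bp from its start. A further region by srpr-1.1, 364 bp from its start and of signal 78.4, was in the conservative list and not in the pooled one. The fifth gene, srpr-3 (V:9293334-9293632), had no summit in any thresholded list, and its ranked region had a signal of 43.2 in the pooled list, 28.0 in replicate 1 and 16.1 in replicate 2.

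These 5 genes are closely related copies, 4 of them near-identical, so reads may have been placed at the wrong copy or shared among them, and their separate signals are uncertain. The genes srpr-1.1 and srpr-1.2 were identical at 98.3% of aligned positions and srpr-2.1 and srpr-2.2 at 99.0%. The pairs were at 94.0 to 94.3% to each other and at 81.7 to 82.5% to srpr-3. The 100 bp upstream were 95% identical between srpr-1.1 and srpr-1.2 and 44.8 to 64.2% between all other pairs. The first 60 bp are given, from 5′ to 3′, for 1 gene of each pair, both with a summit in both replicate lists, and for srpr-3, the copy with no summit.
srpr-1.2, chrIII:4369468-4369527, plus strand: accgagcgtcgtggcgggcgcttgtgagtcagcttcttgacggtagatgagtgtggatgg
srpr-2.1, chrIII:5211220-5211279, plus strand: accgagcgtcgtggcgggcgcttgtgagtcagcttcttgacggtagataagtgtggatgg
srpr-3, chrV:9293573-9293632, minus strand: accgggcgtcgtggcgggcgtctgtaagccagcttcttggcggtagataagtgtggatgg

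The other structural RNAs of the list had no summit. The Y RNA gene yrn-1, whose upstream letters matched those of mrpr-1, had no summit in any thresholded list, and its highest ranked region had a signal of 10.1, in the pooled list alone. The gene rncs-1, whose largely double-stranded RNA can compete for Dicer, had a ranked region of 21.5, and tts-1, a long noncoding RNA studied in long-lived worms, had none. In all, 6 of the 10 listed structural RNA genes had a summit, against 181 of all 7214 members. The list was drawn up with earlier results of these data known.

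Among the repeated sequences, C14F11.14 had the highest signal of any member, 267.5 in the pooled list, with 124 in replicate 1 and 140 in replicate 2. Its summit lay 21 bp into the gene, in the promoter of T13C5.6. The pair ZK816.9 and ZK816.8, in the promoter of ZK816.3, had 198.7 with 92.1 and 111 in the replicates. The pair T22B2.9 and T22B2.12, between genes, had 108 with 74.8 and 33.2. All 3 copies were in both replicate lists, and T22B2.9 was named after its value had been seen.

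Of the 13 member summits that held the relaxed B box letters, 5 were in both replicate lists, these 3 copies and a pair of summits without the shared stretch. T28D6.13, T28D6.15 and T28D6.10 share 1 summit of 249, with 141 and 107 in the replicates, in an intron of tba-7, an alpha tubulin gene, which runs opposite to T28D6.13. K10H10.14 and K10H10.11 share 1 summit of 230, with 111 and 114, between genes. The other 8 were weak, from 47.2 to 69.0, all below the list median of 75.4, and 6 of them were in neither replicate list. The 13 had a median signal of 67.1, against 62.9 for the 107 member summits without the letters, and 5 of 13 were in both lists (38.5%, 13.9 to 68.4) against 19.6% (12.6 to 28.4). Across all members the letters were not frequent. GTTCNANNC, searched on both strands within 100 bp of the summit or midpoint, was in 13 of 120 member summits (10.8%, 5.90 to 17.8), in 6.58% of the 7033 members without a summit and in 81.5% of the 336 summits at other small RNA genes. The stricter GTTCGANNC, which it includes, was in 4 of 120 (3.33%, 0.916 to 8.31), in 1.91% and in 60.1% of these. None of the 120 summits lay within 250 bp of the 209 tRNA pseudogenes in the RefSeq annotation.

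The family with shared letters upstream and inside the gene had its summits at a few places on chromosome II. F08G2.13, between genes, had a summit of 145 at 4 bp into the gene, with 79.0 and 67.5 in replicates 1 and 2. W01D2.9, in the promoter of W01D2.3, had one of 138 at 7 bp, with 65.9 and 86.8. W01D2.7, which starts 293 bp before W01D2.9, had a summit of its own, of 85.5 at 5 bp before its start, the highest at any member that was in neither replicate list. W01D2.8, also at W01D2.3, had one of 79.96 at 35 bp, with 48.5 and 33.8. F08G2.12, which lies beside F08G2.13, had no summit and a ranked region of 27.7, and M163.12 on X had no ranked region. The genes W01D2.8, W01D2.9, F08G2.12 and M163.12 were chosen after their values had been seen.

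The 24 summits at structural RNAs, relaxed B box letters or the upstream letters had a median signal of 96.9, and 13 were in both lists (54.2%, 32.8 to 74.4). By kind the medians were 149 at the 7 structural RNA summits, 142 at the 6 with the upstream letters and 67.1 at the 13 with B box letters, some summits being of more than 1 kind. The other 96 had a median of 60.7, and 13 were in both lists (13.5%, 7.41 to 22.0). For the 91 of those 96 with a region in both ranked lists, the signals of the replicates had a rho of 0.0676. Pooled signals of the 96 spanned a narrow range, with quartiles of 52.4 and 72.2, which by itself can lower rho. The 24 were grouped after the data had been seen, so the gap between the groups is a description.

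Among the other 96, the highest signals outside promoters were 136 at H34C03.18 and 118 at Y48B6A.23, both between genes and both in both replicate lists. In promoters they were 136.0 at Y65B4BR.10, at the ubiquitin ligase gene wwp-1, and 134 at F57B10.17, at dad-1 and the trehalase gene tre-1. These 4 were named after their values had been seen, as were the genes of the next sentences. The 53 promoter summits lay at 68 protein-coding genes, and 17 of them served at least 2 genes at once. Cytosolic ribosomal protein genes were at 5 of the 53, rps-3A, rpl-11.2, rpl-5, rpl-8 and rpl-39, and at 18 of the 392 promoter summits away from members. Genes named as chaperones or cochaperones (hsp-1, hsp-6, dnj-13, dnj-14, dnj-19, cct-7 and pfd-1) were at 7 of the 53 and at 7 of the 392. Histone genes, his-3 with his-4 and his-63 with his-64, were at 2 of the 53 and at 11 of the 392. At such summits the ncRNA gene and the coding promoter cannot be told apart. Apart from the structural RNAs, lfor-2 was the only member with both a symbol of its own and a summit. Its summit, in the promoter of atgp-2, had a signal of 67.1, held the relaxed B box letters and was in the list of replicate 2 alone, at 36.9.

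Most member summits lay inside a gene, and the others up to 250 bp outside. The median summit was 32 bp downstream of the 5′ end of its nearest member, with quartiles of 3 and 107 bp, and 56 of 120 were within 50 bp of that end. Positions ran from 228 bp before that end to 449 bp after it. Of members equally near a summit, as where genes overlap, the one with the closer 5′ end was taken as nearest. That choice shortens these distances by construction, and 53 of the 120 summits had at least 2 members within 250 bp. Inside a member lay 80 of 120 (66.7%), while genes make up 26.8% of the bases in the windows. The median position was 30 bp in promoters and 33 bp outside them. With the summit required to lie inside the gene, the ratio to uniform placement was 7.20. Since the median member is 141 bp long, a base near its 5′ end is also near its other bases.

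**Figure D4:**
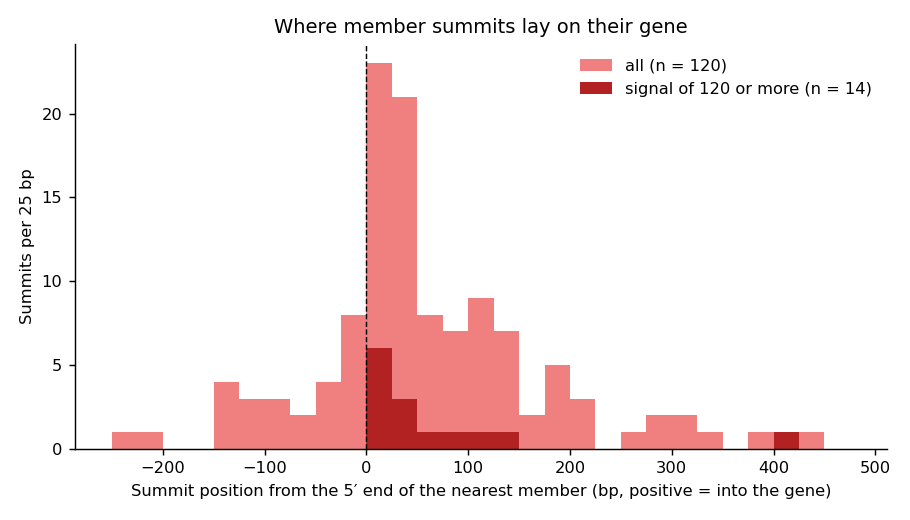
Number of member summits per 25 bp by distance from the 5′ end of the nearest member, for all 120 and for the 14 with a signal of 120 or more; the dashed line marks the 5′ end. The tallest bars lie in the first 50 bp of the gene, and 13 of the 14 stronger summits fall within the first 150 bp. Of members equally near a summit, the one with the closer 5′ end was taken.

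Members that overlap another ncRNA gene had a summit more often than members with no overlap. Of the 120 summits, 53 had at least 2 members within 250 bp, with 4 at most. Members that overlap another ncRNA gene on the opposite strand had a summit at 104 of 2382 (4.37%, 3.58 to 5.27), the few with an overlap on the same strand at 5 of 23 (21.7%, 7.46 to 43.7), and members with no overlap at 72 of 4809 (1.497%, 1.17 to 1.88). Longer members had a summit somewhat more often, 3.55% (2.74 to 4.51) in the top quartile of length against 1.76% (1.21 to 2.48) in the bottom. Longer members also have larger windows, which by itself raises their share. Overlapping genes share their window, so these counts are of genes and not of separate summits.

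Member summits lay in GC-rich sequence. Within 100 bp either side of the summit, median GC was 50.5%, with quartiles of 46.8 and 53.9. It was 45.8% at other summits, 47.3% at those of other small RNA genes and 43.0% in other promoters, and the nuclear genome has 35.4%. Around the midpoints of members it was 49.8% with a summit and 41.8% without. Over quartile groups of the members by that GC, the share with a summit was 0.595% (0.297 to 1.06) and 0.561% (0.269 to 1.03) in the lower groups, then 1.96% (1.39 to 2.70) and, at 47.3% GC or more, 7.25% (6.06 to 8.59). Replicate 1 went from 0.216% to 3.12% from the lowest to the highest group and replicate 2 from 0.487% to 3.07%. Outside coding promoters the pooled share went from 0.405% to 5.61%.

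Summits were denser in sequence of higher GC, and above 40% GC they were denser at members than elsewhere. Away from other small RNA genes, sequence at 50% GC or more had 318 summits per Mb within 250 bp of members (65 summits) and 55.6 per Mb elsewhere (146 summits). At 45 to 50% GC the densities were 66.3 and 22.4 per Mb, and at 40 to 45% they were 25.7 and 10.9. At 35 to 40% the order was the other way, 3.09 per Mb from 3 summits against 5.07. The replicates differed there, with 2.06 against 2.66 in replicate 1 and 6.17 against 3.29 in replicate 2. Below 35% the pooled densities were 2.22 per Mb, also from 3 summits, against 1.24. In replicate 1 the highest class had 142 per Mb at members and 25.1 elsewhere, and in replicate 2 it had 127 and 32.4. The regions ranked before the threshold rose with GC as well, from 351 to 2143 per Mb at members and from 287 to 1428 elsewhere. The part of library preparation or mapping in this relation with GC was not tested, and no control library was used here.

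**Figure D5:**
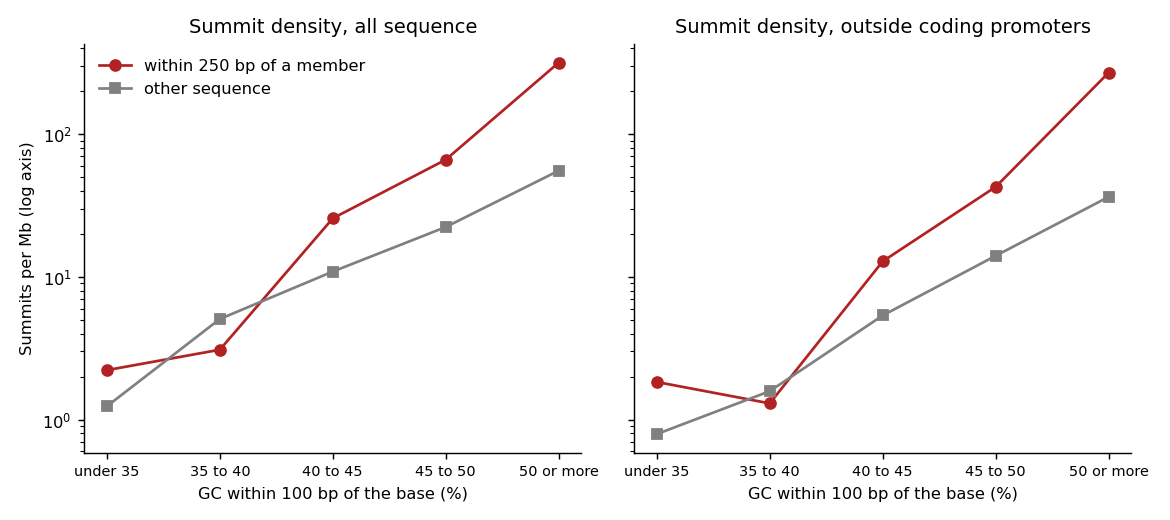
Summits of the pooled list per Mb (log axis) by GC within 100 bp of each base, within 250 bp of members (circles) and in other sequence (squares), over all sequence and outside coding promoters; sequence within 250 bp of tRNA, snRNA, snoRNA and miRNA genes is left out. Both lines climb from 35 to 40% GC upward, and at 50% or more the members' line reached 318 against 55.6 per Mb.

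Outside the pooled thresholded list, member regions were numerous and mostly weak. Of the 7214 members, 3128 (43.4%) had a region ranked before the threshold, and of 2738 such regions 120 were those of the pooled list. Ranked regions were numerous everywhere, 48126 in all, and members' windows held 5.69% of them in 3.74% of the nuclear genome. The share of all genes with a ranked region was not computed, so whether the 43.4% is particular to members is not known. Only 2 of the other 2618 had a signal at or above the list median, the further region by srpr-1.1 and one of 75.9 at F40F11.6. Both of these were in the conservative list. The summits of highest signal in neither replicate list were, after W01D2.7, those at W10C8.12 (75.1) and F47B10.12 (71.1).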

How the data were processed

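Peak lists were used, not reads. Per the deposited file lists, they hold peaks on ce11 ranked or thresholded by irreproducible discovery rate, for each replicate and for both together. For the aligner and the peak caller, tool and version were not given in the sources used here. Peak signal is a value the authors deposited for each peak, with its scale not stated, and the summit is a deposited offset from the peak start. The pooled thresholded list of 1083 peaks was the main one. Replicates were compared through their own lists of 618 and 747 nuclear peaks, after 20 mitochondrial peaks of replicate 2 were left out. Labels gave the replicate numbers.

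Genes came from Ensembl release 115 and names from RefSeq, which matched 7213 of 7214 members by identifier. Sequences were read from the RefSeq WBcel235 genome. A summit was set to a coding promoter, else exon, else intron, else intergenic sequence. Expected counts were computed from the covered share of each chromosome, without resampling, and tested on simulated data. Intervals are exact Clopper-Pearson at 95% and cover counting error only; depth is unknown. Coordinates are 1-based. Identity was counted in global alignments.

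Named members are the 15 of highest signal, the 4 highest in each setting, those with both a symbol and a summit, the structural RNA list and the 3 highest in neither replicate list; others are marked. The members, lists and alternatives were chosen with earlier results of these data known, and the upstream, gene-body and relaxed B box letters after sequences were seen. Python 3.11.15, NumPy 2.4.6, SciPy 1.17.1, Biopython 1.88 and Matplotlib 3.10.9 were used. Coding promoter width, distance, list, placement, GC window and overlap were varied.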

Additional observations from a re-analysis of the deposited data

How the results depend on the processing

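No paired analysis was possible because there is 1 group, and no result comes from a test. Under all alternatives run, both ratios to uniform placement stayed above 1 (1.69 to 7.20 and, outside promoters, 1.22 to 6.66). From the list of 1 replicate alone, members with a summit numbered 78 to 89 and summits 49 to 63, with ratios of 2.03 to 2.21 and, outside promoters, 1.52 to 1.79. The promoter share was then 50.8 to 53.1%, the intergenic share 32.7 to 33.3%, the median signal 41.8 to 50.3 and the median GC 49.3 to 50.7%.

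Peaks at or above the median signal gave 54 members, 35 summits, ratios of 1.69 and 1.22, a promoter share of 54.3%, an intergenic share of 34.3%, a share in both lists of 71.4% and a median signal of 108. A summit inside the gene gave 102 members, ratios of 7.20 and 6.66 and an intergenic share of 43.8%. At 100 bp the ratios were 4.39 and 4.05 and the intergenic share 40%, and at 500 bp they were 2.05 and 2.07 with shares of 40.1% intergenic and 39.4% promoter. The conservative list gave ratios of 2.59 and 2.54, and placement over ranked regions 1.95 and 1.89. Placement over the whole genome gave 2.94 outside promoters. Promoters of 250 bp either side gave a ratio of 3.06, a promoter share of 23.3% and an intergenic share of 59.2%, and those of 1000 bp upstream gave 2.41, 60% and 26.7%. GC was 52.5% over 50 bp either side and 44.7% over 250 bp. Alternatives chosen after the data were seen gave 4.33 and 5.13 with sequence near other small RNA genes left out, 3.54 and 3.88 for peaks at or above the median signal on that base, and 2.74 and 2.54 without the structural RNA list. The cause of these moves was not tested.

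Values moved by less than the SD between the replicate lists (for the share in both lists, stayed within its interval), or within 1.5 times for counts, with a neighbour distance of 1000 bp or with rRNA genes and tRNA pseudogenes also excluded. The lists give no depth, so weak members may be missed.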

Other observations

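Other letters were searched on both strands within 100 bp of the summit, or of the midpoint for members without a summit. GGTTCGA, a short form of the B box, was in 5 of 120 member summits (4.17%) and in 1.83% of members without a summit. TATAAA, the TATA box letters, was in 8 (6.67%) against 13.5%. The repeat GAGAGAGA was in 8 (6.67%) against 6.21%, and in 6.65% of all 1083 summits. CTGCGTCT was in 9 (7.5%) against 3.26%, and in 8.13% of all summits and 11.5% of those in other coding promoters. The conservative list held 135 peaks absent from the pooled list, and 20 of these had their summit at a member.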
